A study of Mus musculus and Homo sapiens with 22 samples.

Results

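Collagen chain genes were taken as all mouse genes whose symbol has the form Col, a type number, the letter a and a chain number, such as Col4a1. There were 44 of them among the 38924 gene IDs listed for each library labelled 4T1, a mouse mammary carcinoma cell line. They comprised 11 genes of fibrillar collagens, 8 of basement membrane collagens (the type IV chains Col4a1 to Col4a6, Col15a1 and Col18a1) and 25 of other types. The symbols alone chose them, with no measured value.

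The 12 libraries came from total RNA of cells plated for 24 h and then exposed for 24 h to ENMD-2076, to TAK901 or to dimethyl sulfoxide (DMSO), the solvent control. Both compounds are kinase inhibitors known to act on Aurora kinases. The tables came in 2 naming sets. Set 1 held DMSO replicates 1 and 2 and the ENMD-2076 pairs at 1.25 and 2.5 µM, and set 2 held DMSO replicates 3 and 4 and the TAK901 pairs at 1 and 2 µM. Each of these 6 groups had 2 libraries, and each compound was compared with the DMSO pair of its own set. The doses are those of the treatment labels. For ENMD-2076 the growth protocol gives 1 or 2 µM instead and the column headers carry 10 µM at both doses, so the doses printed here are uncertain. No genetic change is given for any group. Nothing in the labels says whether the 2 libraries of a group are separate cultures. The p-values then measure only how far these libraries spread, which can be a technical spread.

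Collagens are proteins in which 3 chains wind into a triple helix. Most are secreted, and 4 of the genes here encode transmembrane types. Fibrillar collagens (types I, II, III, V, XI, XXIV and XXVII) build the fibres of connective tissue, cartilage included. Types such as I and III are made largely by fibroblasts. Type IV collagen forms the sheet-like network of basement membranes, on which epithelial cells rest, from heterotrimers whose chains are encoded by gene pairs on facing strands. Types XV and XVIII are proteoglycans of the basement membrane zone, type VII forms the anchoring fibrils beneath epithelia, type VIII a network, type VI beaded filaments, and types such as XII, XIV and XVI lie on the surface of fibrils.

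A total of 40 collagen genes had at least 1 read in some library, and Col11a1, Col13a1, Col6a4 and Col6a6 had none in any. After the filter on low counts 27 were tested: 6 fibrillar, 7 of the basement membrane and 14 others. The other 17 were too low to test. Some passed the filter only through groups where they were high: Col23a1 through 2.5 µM ENMD-2076, and Col1a2 and Col4a4 through ENMD-2076 libraries. Col5a3, Col6a3 and Col15a1 passed only through set 2. Against DMSO 1 and 2, calls of these genes in those groups could only be rises. Collagens took 0.200 and 0.198% of the gene reads in DMSO 1 and 2. The share was 0.208 and 0.191% in the 1.25 µM ENMD-2076 pair and 0.0825 and 0.0846% in the 2.5 µM pair. In set 2 it was 0.149 and 0.139% in DMSO 3 and 4, then 0.132 and 0.126% in the 1 µM TAK901 pair, then 0.119 and 0.121% in the 2 µM pair. The pair at 2.5 µM ENMD-2076 thus held the lowest share of gene reads, well apart from every other library. After scaling between libraries it was level with the 2 µM TAK901 pair. Scaled collagen counts then summed to 1078 and 1080 per M in the 2.5 µM ENMD-2076 pair and to 1075 and 1085 per M in the 2 µM TAK901 pair. In RNA of a whole culture, fewer cells that make a transcript and less of it per cell cannot be told apart.

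The libraries differed in ways that touch these values. Gene reads summed to 14.4 to 30.9 M per library, except 6.00 and 3.75 M in the 2 µM TAK901 pair. The pair at 2.5 µM ENMD-2076 stood apart: mitochondrially encoded genes took 8.72 to 8.83% of its reads against 3.92 to 4.13% in DMSO 1 and 2 and 6.21 to 7.09% in the 1.25 µM pair, and Gm26917 reached a mean of 2710 CPM (counts per M gene reads) against 33.4. The naming sets went apart too. All 4 Y-linked genes listed had no read in set 1 and summed to 238 to 253 CPM in set 2, and Hnf4a, a transcription factor of liver and gut epithelium, had no read in set 1 and a mean of 210 CPM in DMSO 3 and 4. The 10 epithelial markers summed to 4370 to 4460 CPM in DMSO 1 and 2, 4190 to 4390 with 1.25 µM and 3070 to 3180 with 2.5 µM, and to 4560 to 5980 in set 2, with 1 of them without a read in set 1. Epcam, Cdh1 and Krt8 were present in all 12 libraries, but at unlike levels. Epcam had a mean of 352 CPM in DMSO 1 and 2 and 88.5 in DMSO 3 and 4, Cdh1 423 and 568, and Krt8 1020 and 2590. The means of Krt14 went from 0.472 CPM in DMSO 1 and 2 to 55.1 and 5.47 CPM at the ENMD-2076 doses. Those of Krt18 went from 1410 to 867 and 520 CPM. The 8 haematopoietic markers summed to 18.8 to 20 CPM in DMSO 1 and 2 and to 130 to 137 CPM in DMSO 3 and 4. The 10 fibroblast markers summed to 33.3 to 93.2 CPM over all groups. They differed widely: Dcn and Lum had 0 to 0.161 CPM in every library. Pdgfra had 36.8 and 43.4 CPM in DMSO 1 and 2, most of the sum there, and 12.3 and 12.8 CPM in DMSO 3 and 4. Set 2 is therefore named by its labels only, and a difference between the sets cannot be told apart from a difference between their cells.

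In both DMSO pairs the collagen reads came mainly from basement membrane genes. Levels are given as CPM after trimmed-mean (TMM) scaling. The 8 basement membrane genes held 59.7 and 60.4% of the collagen CPM in DMSO 1 and 2, and 74.7 and 74.9% in DMSO 3 and 4. The fibrillar genes held 3.91 and 3.52%, and 4.80 and 4.98%. Some chains that fibrils are built from were close to absent. The type III gene Col3a1 had 8 reads and Col5a2, the partner of Col5a1 in type V collagen, had 3 reads over all 12 libraries. Col5a1 itself had 1316 and 1127 reads in DMSO 1 and 2 and 861 and 900 in DMSO 3 and 4. Col1a1, the main chain of type I collagen, had 4 and 11 reads in DMSO 1 and 2 and 110 and 111 in DMSO 3 and 4. For Col1a2, its partner chain, 0 and 6 reads were counted in the first pair and 4 and 1 in the second.

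Divided by exon length, so that genes can be ranked, the order in DMSO 1 and 2 began with Col4a1 at 53.9 ± 0.174 CPM per kb of exon (mean ± SD, n = 2 here and below). Col8a1, the network collagen of vessel walls and of the membrane under the corneal endothelium, followed at 49.6 ± 0.406 CPM per kb. Col18a1, whose fragment is endostatin, stood at 47.8 ± 0.760 and Col4a2 at 45.4 ± 0.491 CPM per kb. These first 4 genes lay apart by more than the SD of their pairs. Below them came Col4a5 at 24.2 ± 1.19, Col7a1 at 18.2 ± 0.0777, Col16a1 at 16.2 ± 0.409, Col5a1 at 8.10 ± 0.394 and Col6a1 at 6.63 ± 0.695 CPM per kb, again apart by more than these SDs. The remaining 6 of the 15 genes with a mean of at least 5 CPM in some group were below 0.7 CPM per kb there.

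DMSO 3 and 4 gave another order. Col4a1 was first again at 56.9 ± 3.71 CPM per kb, followed by Col18a1 at 44.1 ± 1.77 and Col4a2 at 33.4 ± 1.14. Col6a1 came next at 12.3 ± 0.969. Col8a1 at 9.25 ± 0.254 and Col7a1 at 8.52 ± 0.779 CPM per kb lay within their spread of each other. Col4a5 stood at 7.07 ± 0.513, Col16a1 at 4.82 ± 0.440 and Col5a1 at 4.15 ± 0.228.

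**Figure D1:**
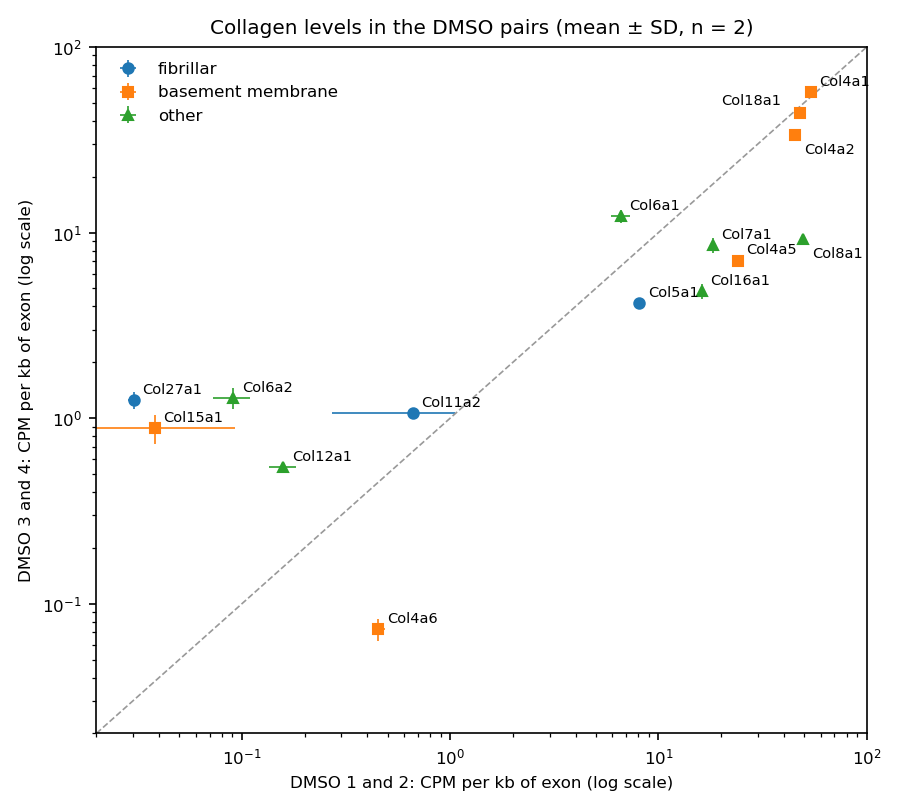
Mean collagen level per kb of exon in DMSO 1 and 2 (x axis) and DMSO 3 and 4 (y axis), both in TMM-normalised CPM per kb on log scales, with bars of ± SD over 2 libraries, a bar reaching 0 being drawn to the edge of the plot, and a dashed line of equal level. Col4a1 and Col18a1 lie close to the line, Col8a1, Col4a5 and Col4a6 lie below it, and Col27a1, Col15a1 and Col6a2 lie far above it.

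Between the 2 DMSO pairs, 19 of the 27 tested collagens differed at an adjusted p under 0.05, a share of 70.4% beside 67.3% of all 15375 genes tested. Higher in DMSO 3 and 4 were 10 collagens, where 36.6% of all genes were higher, and lower were 9, where 30.6% were. Among them, Col8a1 had 391 and 386 CPM in DMSO 1 and 2 against 73.8 and 71.0 in DMSO 3 and 4. The groups did not overlap (log2 fold change -2.42, SE 0.0634, adjusted p = 1.59e-24). With 2 libraries per group, a lack of overlap here and below says little by itself. Col8a2 with 2 µM TAK901 also lay apart from its controls, at an adjusted p of 0.797 in the same kind of test. The share of all genes that lay apart was not counted. Col27a1, a fibrillar collagen of cartilage, had 0.379 and 0.413 CPM against 15.1 and 17.4 (log2 fold change 5.34, SE 0.314, adjusted p = 1.38e-15). Of the type VI chains, Col6a1 had 26.9 and 31.2 CPM against 56.8 and 50.8, and Col6a2 had 0.865 and 0.648 CPM against 11.7 and 9.74. For Col6a3, the chain that completes the usual type VI trimer, no read was counted in any of the 6 libraries of set 1, and 42 and 46 reads were counted in DMSO 3 and 4. Its level there was at least 10.4-fold higher, taking 3 reads per library as the limit that a count of 0 allows, for counting error only. As Col6a3 passed the low-count filter only through set 2, its call here could only be a rise. With ENMD-2076 it could not be called at all. Further collagens higher in DMSO 3 and 4 were Col15a1, Col1a1, Col12a1, Col5a3, Col23a1 and Col11a2, the last at an adjusted p of 0.047 that missed 0.05 in 10 of 20 alternative analyses. Lower beside Col8a1 were Col4a2, Col4a5, Col4a6, Col5a1, Col7a1, Col14a1, Col16a1 and Col25a1. The calls of Col14a1 (adjusted p = 0.0139) and Col23a1 (0.019) were each lost without DMSO replicate 1 or 3, that of Col14a1 also without DMSO replicate 4 and with DESeq2, and that of Col23a1 also without DMSO replicate 2. The difference of Col25a1 was -0.90 without DMSO replicate 1 (adjusted p = 0.27). Col4a1 (log2 fold change 0.08, adjusted p = 0.294) and Col18a1 (-0.12, adjusted p = 0.0784) missed the threshold. With scaling to total counts Col4a1 passed it at 0.19, when the median of all genes was also 0.19.

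Type IV genes lie head to head in pairs, and the promoters of Col4a5 and Col4a6 are shown because this pair rose together with 1.25 µM ENMD-2076 and fell together with 2.5 µM, as given further on. In GRCm38, the assembly also called mm10, Col4a5 (ENSMUSG00000031274.10) lies at chrX:141475385-141689234 on the plus strand and Col4a6 (ENSMUSG00000031273.10) at chrX:141165403-141474076 on the minus strand. Both windows are from RefSeq (GRCm38.p6) and run 5′ to 3′ on the strand of the gene, from 250 bases before its start to 50 bases after it. They lie at chrX:141475169-141475468 (Col4a5) and chrX:141474027-141474326 (Col4a6). Capitals mark matches to the GC box letters GGGCGG, or CCGCCC on the other strand, and to the CCAAT box, or ATTGG on the other strand.
Col4a5: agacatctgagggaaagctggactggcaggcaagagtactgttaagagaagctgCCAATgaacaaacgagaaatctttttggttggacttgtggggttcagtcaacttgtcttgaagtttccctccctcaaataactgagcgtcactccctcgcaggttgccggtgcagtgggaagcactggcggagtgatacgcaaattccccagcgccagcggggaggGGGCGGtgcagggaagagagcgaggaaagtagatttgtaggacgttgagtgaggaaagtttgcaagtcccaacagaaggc
Col4a6: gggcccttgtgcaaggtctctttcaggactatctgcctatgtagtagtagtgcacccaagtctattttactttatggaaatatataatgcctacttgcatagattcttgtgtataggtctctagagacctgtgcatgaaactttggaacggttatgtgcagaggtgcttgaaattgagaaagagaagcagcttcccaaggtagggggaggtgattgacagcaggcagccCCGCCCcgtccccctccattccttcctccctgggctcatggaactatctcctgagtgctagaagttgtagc
The 2 starts are 1343 bases apart and the windows share no base. The window of Col4a5 held 1 GC box and 1 CCAAT box, and that of Col4a6 held 1 GC box and no CCAAT box. RefSeq windows were found for 35 of the 44 collagen genes, 38 windows in all. Of these 60.5% held a GC box and 34.2% a CCAAT box, beside 35.7% and 37.4% of all 32851 windows of that length. A match describes the letters and is no evidence of a bound site.

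Col4a1 (ENSMUSG00000031502.9, chr8:11198423-11312826, minus strand) and Col4a2 (ENSMUSG00000031503.7, chr8:11312805-11449287, plus strand) encode the chains of the most common type IV trimer. Their RefSeq starts are 21 bases apart, with that of Col4a2 inside Col4a1. Reads of these neighbours went apart with 2.5 µM ENMD-2076. Col4a1 had 401 and 403 CPM in DMSO 1 and 2, 362 and 302 with 1.25 µM and 396 and 390 with 2.5 µM. Col4a2 had 303 and 298 CPM, then 223 and 215, then 84.8 and 82.4. The 2.5 µM pair thus lay just below DMSO for Col4a1 and far below every other library for Col4a2. The ratio of Col4a1 to Col4a2 reads per kb of exon, which no scaling between libraries can change, was 1.17 and 1.20 in DMSO 1 and 2, 1.44 and 1.25 with 1.25 µM, and 4.14 and 4.20 with 2.5 µM. In set 2 it was 1.74 and 1.67 in DMSO 3 and 4, then 1.64 and 1.58 in the 1 µM TAK901 pair, then 1.46 and 1.74 in the 2 µM pair. The log2 ratio was 1.81 above DMSO at 2.5 µM ENMD-2076 with no overlap (exact permutation test, two-sided, p = 0.33, the smallest that 2 against 2 libraries allow). The exons of the 2 genes share 22 bases on opposite strands, and whether counting used strand is not given in the sources used here. Reads in that overlap cannot be assigned with certainty, and the same holds for the 43 bases that Col4a2 shares with Gm15419, the 99 and 113 that Col5a1 shares with 2810430I11Rik and Gm13372, and the 36 that Col7a1 shares with Mir711.

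**Figure D2:**
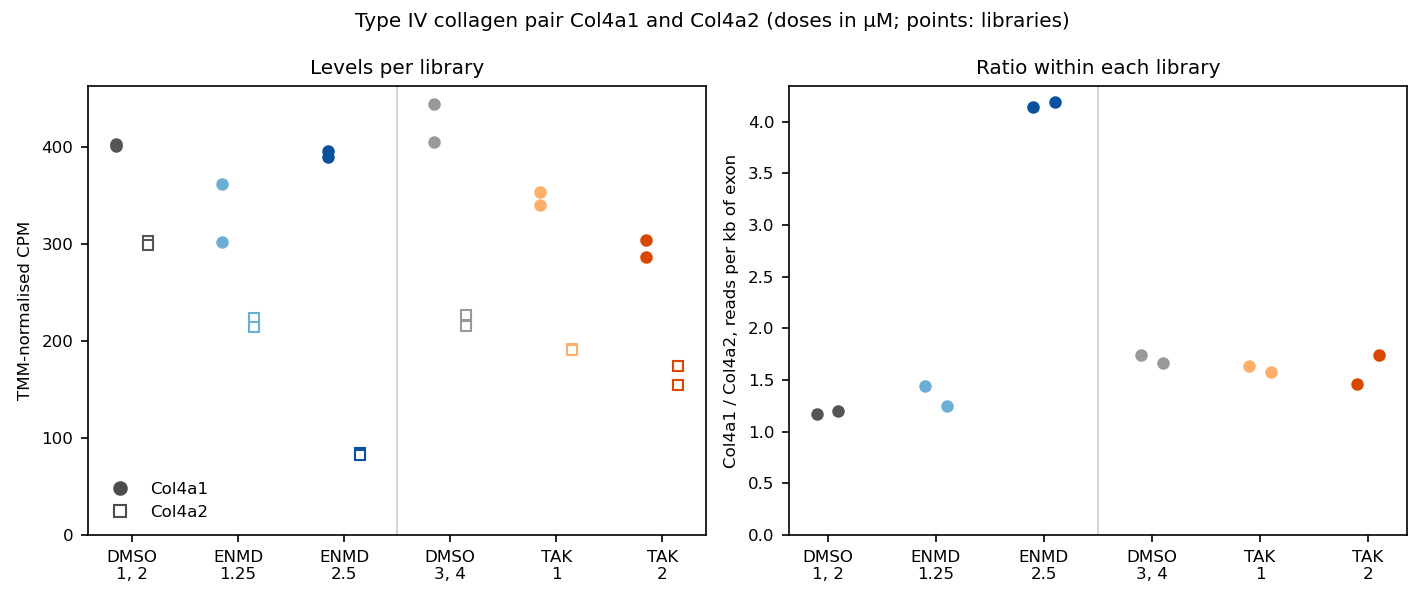
Left, TMM-normalised CPM of Col4a1 (filled circles) and Col4a2 (open squares) in each of the 12 libraries, by group with doses in µM; right, the ratio of their reads per kb of exon in the same libraries. The ratio lies at 4.14 and 4.20 in the 2.5 µM ENMD-2076 pair and between 1.17 and 1.74 in the other 10 libraries.

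With 1.25 µM ENMD-2076, collagens moved in both directions. Of 27 tested, 9 rose, beside 22.6% of all genes, and 5 fell, beside 23.2%. Together these made 51.9% of the tested collagens beside 45.9% of all genes, and the median log2 fold change was -0.10 for the collagens and 0 for all genes. DMSO 1 and 2 are the controls of both ENMD-2076 doses, as DMSO 3 and 4 are of both TAK901 doses.

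Among basement membrane collagens 3 of 7 rose and 3 fell at 1.25 µM. Col4a5, whose chain forms the type IV networks of kidney, skin and smooth muscle, had 157 and 168 CPM in DMSO and 314 and 292 with the compound. All treated values lay above all controls (log2 fold change 0.90, SE 0.0678, adjusted p = 1.14e-12). Its partner Col4a6 had 3.79 and 3.42 CPM against 9.69 and 7.25, also without overlap (1.22, SE 0.318, adjusted p = 0.00207). Col18a1 went the other way, with 332 and 339 CPM in DMSO and 131 and 119 with the compound. This was the largest fall among basement membrane collagens (log2 fold change -1.43, SE 0.0604, adjusted p = 6.89e-19). The values of Col4a2 given above fell by 0.46 on the log2 scale (SE 0.0589, adjusted p = 9.99e-08). Those of Col4a1 fell by 0.28 (SE 0.0666, adjusted p = 0.000804), but without ENMD-2076 1.25 µM replicate 2 by 0.15 with an adjusted p of 0.0865. The call of Col4a4, a chain of the kidney filter membrane, rested on 2 and 2 reads in DMSO against 9 and 18 (adjusted p = 0.0336) and was lost in 14 of 21 alternative analyses.

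Fibrillar collagens were mostly low, and 2 of 6 rose and 1 fell. Col5a1, which in type V collagen starts fibrils, was the only fibrillar gene above 10 CPM in set 1, with 71.2 and 66.4 CPM in DMSO and 74.1 and 72.1 with 1.25 µM. Its change missed the threshold (log2 fold change 0.09). Col1a2 had 0 and 6 reads in DMSO against 23 and 57 with the compound (log2 fold change 3.28, SE 0.848, adjusted p = 0.00186), and without DMSO replicate 1 the adjusted p was 0.0577. Col27a1 stood at 0.379 and 0.413 CPM against 0.963 and 0.934 (adjusted p = 0.0259, lost in 4 of 21 alternatives, among them each DMSO library left out in turn). Col11a2, a chain of the minor fibrillar collagen of cartilage, had 6.43 and 2.65 CPM against 2.20 and 0.966, so the controls themselves lay wide apart. Its fall of 1.67 (log2, adjusted p = 0.000311) was 0.89 without DMSO replicate 1, with an adjusted p of 0.0812.

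Of the 14 other collagens tested, 4 rose and 1 fell. Col12a1, which coats fibrils and is known from tissue under strain, had 2.16 and 2.65 CPM in DMSO and 30.7 and 27.5 with 1.25 µM. The groups lay far apart (log2 fold change 3.59, SE 0.188, adjusted p = 1.61e-16). Col7a1, the anchoring fibril gene, had 187 and 188 CPM against 342 and 323 (0.83, SE 0.0663, adjusted p = 4.52e-12). Col6a1 had 26.9 and 31.2 CPM against 55.3 and 49.5 (0.85, SE 0.107, adjusted p = 7.23e-08). Both treated libraries exceeded both controls for each of these genes. Col16a1, which lies on fibrils, had 111 and 107 CPM against 137 and 123 (0.25, adjusted p = 0.0106), and its call was lost without DMSO replicate 2 (adjusted p = 0.0869) or without ENMD-2076 1.25 µM replicate 1 (0.126). Col14a1, another fibril-associated gene, fell from 1.68 and 1.42 CPM to 0.0688 and 0.193 (log2 fold change -3.32, SE 0.738, adjusted p = 0.000387). Col8a1, at 391 and 386 against 367 and 359 CPM, missed the threshold (-0.10).

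Of the fibroblast markers, Postn (periostin, a matrix protein of activated fibroblasts and of some tumour cells) went from a mean of 0.162 CPM in DMSO 1 and 2 to 61.0 at 1.25 µM and 1.42 at 2.5 µM. The 10 markers summed to 38.2 and 43.9 CPM in DMSO and to 82.5 and 93.2 CPM at 1.25 µM. Pdgfra, a receptor of fibroblasts, fell (log2 fold change -0.61), and 4 of the 10 markers had no read with 1.25 µM. The part of these genes in the collagen results was not tested.

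At 2.5 µM the balance was downward. Of 27 tested, 3 collagens rose, beside 33.2% of all genes, and 11 fell, beside 37.1%. Together these made 51.9% of the tested collagens beside 70.3% of all genes. The median log2 fold change was -1.14 for the collagens and -0.02 for all genes. The collagen median was the value of Col14a1, which missed the threshold (adjusted p = 0.113) on 11 and 8 reads against 31 and 24. The 27 also held genes near the floor in set 1, such as Col5a3 and Col15a1, and Col6a3 without a read there. Scaling to total counts, which ignores the shift in composition, moved the median of all genes to -0.37, and then 3 collagens rose and 13 fell.

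In the basement membrane class 4 of 7 fell and 1 rose. Col4a5 dropped to 22.9 and 21.6 CPM, far below its DMSO values (log2 fold change -2.86, SE 0.0854, adjusted p = 6.42e-23). Col4a6 fell to 1.64 and 0.531 CPM (-1.64, SE 0.409, adjusted p = 0.000691). Col4a2 fell by 1.85 on the log2 scale (SE 0.0642, adjusted p = 2.54e-21). Its neighbour Col4a1 was at -0.03 (SE 0.0669, adjusted p = 0.684), and with total-count scaling at -0.39 (adjusted p = 5.59e-06), next to that scaling's median of -0.37. Col18a1 had 284 and 296 CPM, below DMSO by 0.21 (SE 0.0587, adjusted p = 0.00186). That call was lost in 5 of 20 alternatives, for example with DESeq2's size factors in edgeR (-0.05, adjusted p = 0.432), without DMSO replicate 2 (0.0788) and without ENMD-2076 2.5 µM replicate 1 (0.0631). The rise of Col4a4 rested on 7 and 11 reads (adjusted p = 0.0162) and was lost in 4 of 20 alternatives, 3 of them leaving out DMSO 1, DMSO 2 or 2.5 µM replicate 2.

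All 3 fibrillar collagens called at 2.5 µM were lower. Col5a1 went from 71.2 and 66.4 CPM to 18.1 and 19.1, with no overlap (log2 fold change -1.89, SE 0.0978, adjusted p = 3.93e-17). Col11a2 fell to 0.632 and 0.442 CPM (-3.04, SE 0.471, adjusted p = 1.1e-06). For Col27a1 only 0 and 1 read were left (adjusted p = 0.00691, and 0.115 without 2.5 µM replicate 1).

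The other types gave 4 lower and 2 higher of 14. Col7a1 dropped to 36.8 and 34.1 CPM (-2.40, SE 0.0790, adjusted p = 6.79e-22). Col16a1 dropped to 29.1 and 34.1 CPM (-1.80, SE 0.0928, adjusted p = 3.75e-17). Col8a1 fell to 155 and 154 CPM (-1.33, SE 0.0616, adjusted p = 2.6e-18). Col6a1 fell to 13.3 and 9.29 CPM (-1.33, SE 0.132, adjusted p = 1.83e-10). For each of these genes both treated libraries lay below both controls. Against this trend, Col12a1 was again high at 22.0 and 20.0 CPM (3.13, SE 0.195, adjusted p = 3.82e-15). Col23a1, a transmembrane collagen of epithelial cells, had no read in DMSO 1 and 2 or with 1.25 µM and 74 and 43 reads with 2.5 µM, or 4.67 and 3.80 CPM. That was at least 25.0-fold higher than DMSO, again with a count of 0 taken as up to 3 reads per library. This gene passed the low-count filter only through the 2.5 µM pair, so its calls against DMSO and against 1.25 µM could only be rises. Reads of the endothelial marker Pecam1 moved in the same libraries, at 1.14 and 2.12 CPM against 0.108 and 0.236 in DMSO, and the 8 endothelial markers summed to 11.4 to 14.6 CPM against 5.36 to 6.70. Their part in these results was not tested, nor was that of the share of mitochondrial reads.

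**Figure D3:**
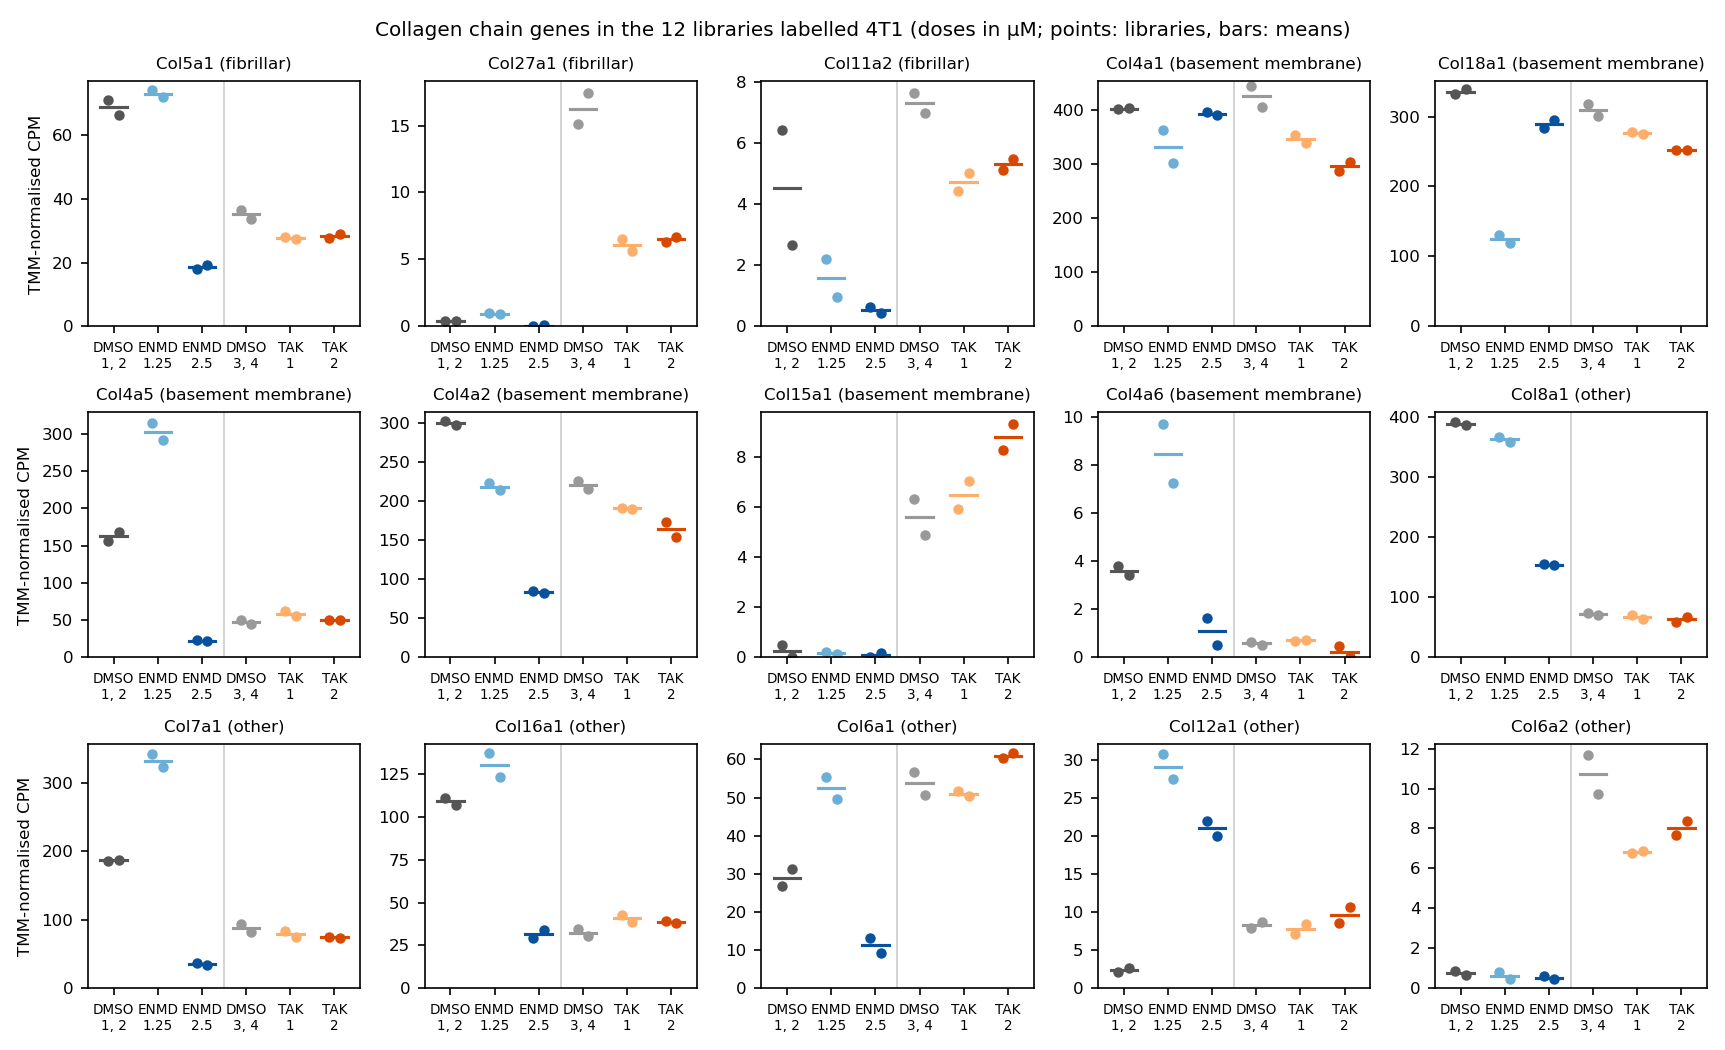
TMM-normalised CPM of the 15 collagen genes with a mean of at least 5 CPM in some group, by group with doses in µM, each with its own linear axis from 0 (points: libraries; bars: group means; the vertical line parts the naming sets). Col4a5, Col7a1, Col6a1 and Col4a6 are highest in set 1 at 1.25 µM and lowest at 2.5 µM ENMD-2076, Col18a1 is lowest at 1.25 µM, and the TAK901 groups stay near their DMSO pair for most genes.

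The doses of ENMD-2076 were also compared directly, 2.5 against 1.25 µM, because several collagens lay on opposite sides of DMSO. In this comparison 12 of 27 collagens were lower, beside 37.8% of all genes, and 4 were higher, beside 35.4%. That is 59.3% of the tested collagens beside 73.3% of all genes. Among collagens above 5 CPM in set 1, Col4a5 differed most (log2 fold change -3.76, SE 0.0847, adjusted p = 4.23e-26). Col7a1 (-3.23), Col4a6 (-2.86), Col6a1 (-2.18), Col16a1 (-2.05), Col5a1 (-1.98), Col4a2 (-1.39) and Col8a1 (-1.23) were lower with adjusted p-values from 2.75e-25 to 7.81e-08. Col8a2, Col11a2, Col27a1 and Col12a1 completed the 12. That of Col8a2 (-2.20, adjusted p = 0.02) was lost in 8 of 20 alternatives, among them DESeq2 (0.126), without 1.25 µM replicate 1 (0.151) and without either 2.5 µM library (0.0862 and 0.113). Col12a1 had a log2 fold change of -0.46 (adjusted p = 0.00604) that missed the threshold with DESeq2 (0.140), with its size factors in edgeR (0.0568) and without 2.5 µM replicate 2 (0.0615). The call of Col11a2 (-1.37, adjusted p = 0.0256) was lost in 5 of 20 alternatives, among them without 1.25 µM replicate 1 and without either 2.5 µM library. Higher at 2.5 µM were Col18a1 (1.22, SE 0.0609, adjusted p = 1.24e-17), Col23a1, Col14a1 and Col4a1. For Col4a1 the difference was 0.25 (adjusted p = 0.00154), and it turned to -0.13 (adjusted p = 0.0729) with total-count scaling, whose median over all genes was -0.38. The call of Col14a1 (2.18, adjusted p = 0.018) was lost without 1.25 µM replicate 1 (0.087) or without 2.5 µM replicate 1 (0.0604).

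**Figure D4:**
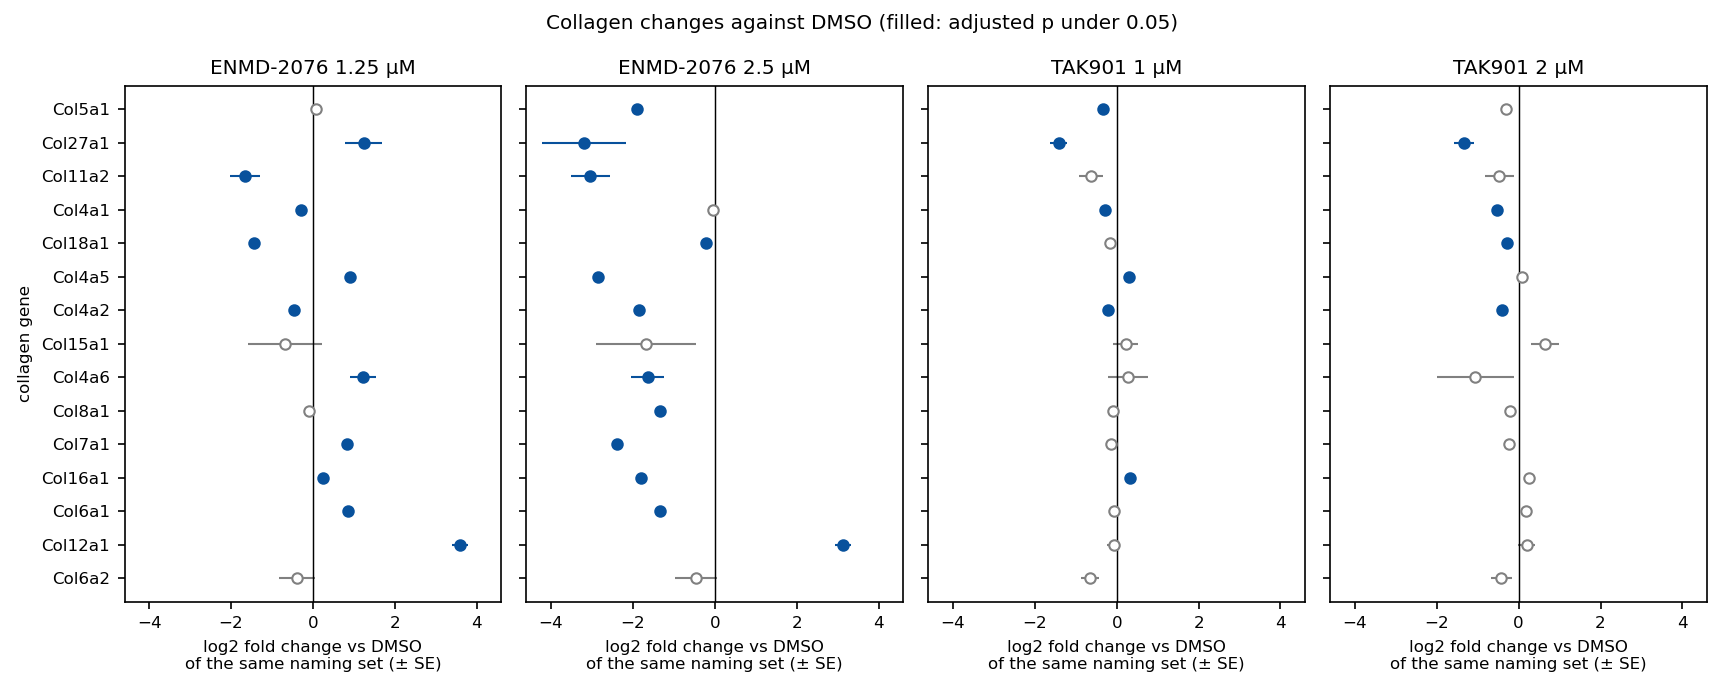
Log2 fold change of the same 15 collagen genes against the DMSO pair of their naming set at each compound and dose, with bars of ± SE, filled where the adjusted p is under 0.05. At 2.5 µM ENMD-2076 most lie left of 0, with Col12a1 at 3.13 on the right and Col4a1 at -0.03, while with TAK901 only Col27a1 lies beyond -1 among filled points.

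TAK901 calls among collagens were few in number, though their share at 1 µM was above that of all genes. At 1 µM 2 of 27 rose, beside 3.97% of all genes, and 4 fell, beside 5.17%, together 22.2% of the tested collagens beside 9.14% of all genes. These counts depended on the libraries and the fit: 1406 genes in all were called, against 3042 in a fit of set 2 alone and 376 to 583 without 1 of the 4 libraries, and the collagens that fell numbered 1 to 8. At 2 µM none rose, beside 5.63%, and 4 fell, beside 9.28%, or 14.8% beside 14.9% of all genes. Of the 7 tested basement membrane genes 42.9% were called at each dose. For the 6 fibrillar genes the shares were 33.3% at 1 µM and 16.7% at 2 µM, and for the 14 others 7.14 and 0%. By unadjusted p under 0.05, 10 of 27 passed at either dose, and DESeq2 called 6 at 1 µM and 4 at 2 µM. The median log2 fold change of the collagens was -0.16 and -0.23, that of all genes 0.00135 and -0.0211.

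Among the collagens called with TAK901, Col27a1 had the largest log2 fold change. It had 15.1 and 17.4 CPM in DMSO 3 and 4, then 6.56 and 5.66 at the lower dose and 6.33 and 6.68 at the higher. Each treated library lay below both controls. The log2 fold change was -1.42 at 1 µM (SE 0.203, adjusted p = 2.13e-05) and -1.33 at 2 µM (SE 0.246, adjusted p = 0.000248), past the threshold in every alternative run.

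Type IV and type XVIII genes gave the other calls at 2 µM, and these too passed the threshold in all 20 alternatives. Col4a1 had 444 and 405 CPM in DMSO 3 and 4, 353 and 339 with 1 µM and 287 and 304 with 2 µM, with no overlap between DMSO and either dose. On the log2 scale it fell by 0.29 at 1 µM (SE 0.0660, adjusted p = 0.00352, a call lost without DMSO replicate 3 or without TAK901 1 µM replicate 2). At 2 µM it fell by 0.53 (SE 0.0705, adjusted p = 2.7e-06). Col4a2 had 226 and 216, then 191 and 190, then 174 and 155 CPM, likewise apart. At 2 µM it differed by -0.42 (SE 0.0652, adjusted p = 2.65e-05). At 1 µM the difference was -0.21 (adjusted p = 0.0206), a call lost without any 1 of the 4 libraries and with the replicate number as a block (adjusted p = 0.205). Col18a1 had 318 and 301, then 278 and 275, then 252 and 253 CPM. On the log2 scale it fell by 0.30 at 2 µM (SE 0.0621, adjusted p = 0.000948), while -0.16 at 1 µM missed the threshold (adjusted p = 0.0748).

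The remaining calls, all at 1 µM, were small. Col5a1 had 36.6 and 33.9 CPM in DMSO 3 and 4 against 28.0 and 27.5 (log2 fold change -0.34, adjusted p = 0.0124; with the replicate block 0.083). Col4a5 had 49.9 and 45.0 against 61.9 and 55.5 CPM (0.30, adjusted p = 0.00887), and Col16a1 had 34.6 and 30.4 against 43.0 and 38.8 CPM (0.33, adjusted p = 0.0182). The groups did not overlap, but the calls of Col4a5 and Col16a1 were lost without DMSO replicate 4 or without TAK901 1 µM replicate 1, and that of Col5a1 without DMSO replicate 3 or without either treated library. Col6a2, at 11.7 and 9.74 against 6.79 and 6.86 CPM, just missed the threshold (-0.65, adjusted p = 0.0594) and passed it in 9 of 20 alternatives. Col15a1, the other proteoglycan of the basement membrane zone, had 6.33 and 4.89 CPM in DMSO, 5.93 and 7.03 with 1 µM and 8.29 and 9.31 with 2 µM. Its change at 2 µM missed the threshold (0.64, adjusted p = 0.246). At 2 µM Col5a1 had 27.7 and 29.1 CPM, close to its level at 1 µM, and just missed the threshold (-0.31, adjusted p = 0.053). Col12a1, which rose with ENMD-2076, stood at 7.91 and 8.69 CPM in DMSO and 7.19 to 10.7 CPM with TAK901. Whether the compounds differ was not tested, since their doses and naming sets differ. Between 2 and 1 µM TAK901 no collagen passed the threshold, beside 0.0715% of all genes (0.0455% higher and 0.026% lower). There 6 of 27 had an unadjusted p under 0.05, and DESeq2 called none.

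Genes that fold, process, bind or accompany collagens were counted from lists drawn up by function. Their counts stand beside the shares of all genes: 22.6% rose and 23.2% fell with 1.25 µM ENMD-2076, 33.2% and 37.1% with 2.5 µM, while for TAK901 the shares were 3.97% and 5.17% at the lower dose, then 5.63% and 9.28% at the higher. Of 17 tested genes for folding and hydroxylation in the endoplasmic reticulum, 3 rose and 7 fell with 1.25 µM ENMD-2076 (median log2 fold change -0.19). P4ha2, a subunit of prolyl 4-hydroxylase, fell from a mean of 9.08 to 2.91 CPM (log2 fold change -1.63, adjusted p = 7.7e-08), and Serpinh1, the collagen chaperone HSP47, fell from 252 to 198 CPM (-0.35, adjusted p = 1.89e-05). At 2.5 µM 8 rose and 5 fell, a balance that turned to 6 and 7 with total-count scaling. There Serpinh1 stood at 117 CPM (-1.10, adjusted p = 1.05e-15), while Crtap, part of the prolyl 3-hydroxylase complex, rose from 40.2 to 119 CPM (1.56, adjusted p = 7.93e-17). With TAK901 no folding gene rose and 3 fell at 1 µM, and 1 rose and none fell at 2 µM.

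Among 8 tested genes for procollagen processing and crosslinking, 2 rose and 5 fell at each ENMD-2076 dose, beside 45.9% and 70.3% of all genes changed in either direction (median log2 fold change -0.36 and -0.71). Adamts14, which removes the amino-terminal propeptide, went from 61.3 CPM to 19.5 and 15.9 (log2 fold change -1.64 and -1.94). Bmp1, which removes the carboxy-terminal propeptide, went from 424 to 329 and 281 CPM (-0.37 and -0.59). The enhancers of that step went both ways: Pcolce rose at 1.25 µM from 68.4 to 151.5 CPM (1.15, adjusted p = 5.77e-15), and Pcolce2 fell there from 50.9 to 21.4 CPM (-1.26, adjusted p = 1.29e-13) and rose at 2.5 µM to 191.2 CPM (1.91, adjusted p = 9.84e-20). Of 7 tested collagen receptors, 4 fell and 1 rose at 1.25 µM, and 4 fell and 2 rose at 2.5 µM (medians -0.37 and -0.88), again beside 45.9% and 70.3% of all genes. All 10 receptors listed summed to 1530 to 1610 CPM in DMSO 1 and 2, 1490 to 1550 at 1.25 µM and 2000 to 2230 at 2.5 µM. The integrin chain Itgb1 had a mean of 1930 CPM in its highest group, a level that only the 2.5 µM sum exceeds. Most of that sum was thus this 1 gene, while the median change given above was negative. Itga1, the alpha chain of a collagen-binding integrin with preference for type IV collagen, went from 49.97 to 19.1 and 2.22 CPM (-1.39 and -4.56). With TAK901 it had 13.5 CPM in DMSO 3 and 4, 22.7 with 1 µM and 24.6 with 2 µM (0.75 and 0.82, adjusted p = 0.000885 and 0.000986), the second call being lost without TAK901 2 µM replicate 2. It was the 1 receptor called at 1 µM. At 2 µM 2 others fell, the integrin chains Itga2 (297 to 227 CPM, -0.40, adjusted p = 0.000753) and Itgb1 (691 to 591 CPM, -0.22, adjusted p = 0.00974). Both calls were lost without TAK901 2 µM replicate 1, and that of Itgb1 also without 2 µM replicate 2 or DMSO replicate 4.

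Laminins and related genes share the basement membrane with type IV collagen. Of 12 tested, 3 rose and 4 fell with 1.25 µM ENMD-2076, and 2 rose and 9 fell with 2.5 µM (median log2 fold change -0.75), where 37.1% of all genes fell. Lama5, a laminin alpha chain, had a mean of 1419 CPM in DMSO 1 and 2 and 355 at 2.5 µM (SE of the log2 fold change 0.0643, adjusted p = 3.65e-22), and Hspg2, the proteoglycan perlecan, had 449 and 231 CPM (-0.96, adjusted p = 3.12e-13). Sparc, a protein that binds type IV collagen, rose at 1.25 µM from 90.3 to 263 CPM (1.54, adjusted p = 2.29e-19). With TAK901 1 rose and 4 fell at 1 µM, and 1 rose and 6 fell at 2 µM (medians -0.11 and -0.19), where 9.28% of all genes fell. Lama3, a laminin alpha chain of epithelia, fell by 1.04 on the log2 scale at 2 µM, from a mean of 58.8 to 28.2 CPM (adjusted p = 1.14e-07).

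TGF-beta is the best known inducer of collagen genes. Of 14 genes of this pathway, all tested, 5 rose and 5 fell with 1.25 µM ENMD-2076, and 3 rose and 9 fell with 2.5 µM (medians -0.04 and -0.58), beside 33.2% and 37.1% of all genes. The ligand gene Tgfb2 had a mean of 2.20 CPM in DMSO 1 and 2, 18.8 at 1.25 µM and 8.85 at 2.5 µM (log2 fold change 3.08 and 2.02). Tgfb3 had 65.4, 111 and 21.2 CPM (0.76 and -1.62), and so lay above DMSO at the lower dose and below it at the higher. Smad3, the transcription factor that carries the signal, fell at 2.5 µM from 209 to 56.9 CPM (-1.87, adjusted p = 3.53e-21). With TAK901 2 rose and 1 fell at 1 µM, and 2 rose and 2 fell at 2 µM. The part of these genes in the collagen results was not tested.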

How the data were processed

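RNA was isolated with TRIzol, made into libraries with the NEBNext Ultra RNA kit and sequenced on an Illumina HiSeq, per the labels' protocols. The authors deposited 1 file of read counts per library, not normalised and checked here to be whole numbers. From the submitters' processing notes come the tool names HTSeq, TopHat, Bowtie, DESeq2 and FastQC 0.11.3, and as builds mm10 and hg38. Annotation and counting strand: not given in the sources used here. Names were matched by Ensembl ID to GENCODE mouse release 21 for 37607 of 38924 IDs. HTSeq summary lines of set 2 were left out, as were the MDA-MB-231 libraries. For the ENMD-2076 libraries the growth protocol and the column headers give other doses than the treatment labels, which were followed, and those headers name no compound.

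For differential expression edgeR 4.0.16 was run in R 4.3.3 (filterByExpr, TMM, quasi-likelihood fit of all 12 libraries in 6 groups), two-sided, with Benjamini-Hochberg adjustment over 15375 genes and a threshold of 0.05. The SE divides the absolute log2 fold change by the root of F. A test on simulated data preceded the fit. Exon lengths are merged exons of the same annotation. Collagens with a mean of at least 5 CPM in some group were described with values, others where they passed a test, and up to 3 list genes per comparison by size of change. Some list genes are not reported here. Serpinh1, Bmp1, Hspg2, Tgfb3 and Postn were added after their values were seen. The members and lists were chosen with earlier results of these data known. One read was worth 0.0322 to 0.0885 CPM, and 0.151 and 0.239 CPM with 2 µM TAK901. No pair of libraries within a group was a duplicate: counts differed with a chi-square of 2.39 to 7.32 per degree of freedom. Alternatives were other scalings, no filter, set-wise fits, a replicate block, DESeq2 1.42.0 and libraries left out.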

Additional observations from a re-analysis of the deposited data

How the results depend on the processing

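Over 3758 alternative values for the 27 tested collagens, 3619 kept their side of the threshold, 84 lost and 54 gained a call, and 1 turned: Col4a1 at 2.5 against 1.25 µM ENMD-2076, -0.13 with total-count scaling. Falls with 1 µM TAK901 numbered 8 in a fit of set 2 alone and 1 to 6 with single libraries left out, against 4. Rises numbered 0 to 2 there and 2 to 6 at 2.5 µM ENMD-2076 with libraries left out. With 2 µM TAK901, 3 rose in the fit of set 2 alone, and between its doses 1 fell with no filter. Total-count scaling moved the share of calls that were higher, over all genes, from 47.3 to 34.2% at 2.5 µM ENMD-2076, 48.4 to 36.3% between its doses, 43.5 to 53.8% and 37.7 to 53.8% with 1 and 2 µM TAK901, and 63.6 to 76.5% between those. All genes called numbered 3042 rather than 1406 with 1 µM TAK901 in the fit of set 2 alone, 376 to 583 without 1 of its libraries, and 1245 to 1357 rather than 2292 with 2 µM. Between those doses the count ran from 1 to 81 over the alternatives, against 11. The causes were not tested.

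Replicate numbers did not pair libraries (correlations of deviations from -0.0129 to 0.0221). With a replicate block 2 collagens fell with 1 µM TAK901, and 574 genes were called against 1406. Leaving out a library leaves 1 in its group, which is assumed to vary like the others. The 2 µM TAK901 libraries are the shallowest, so changes of low collagens were least detectable there.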
